A study of Mus musculus with 10 samples.

Results

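Chemokines are small secreted proteins that guide leukocytes, and their receptors are G protein-coupled receptors on the cells that respond. The members described here are the protein-coding genes that the deposited table names as Ccl, Cxcl, Ccr or Cxcr with a number, together with Cx3cl1, Cx3cr1 and Ackr1 to Ackr4. The rule found 64 genes among the 54532 of the table, and its choice used names and gene class but no measured value. They were measured by bulk RNA sequencing in the livers of 10 mice of the C57BL/6J background, 5 ASK1f/f and 5 ASK1+hep. All 10 mice carried murine ASK1 cDNA placed in ROSA26 behind a lox-stop-lox cassette. The study describes ASK1f/f mice as homozygous for this construct, and the zygosity of the ASK1+hep mice is not stated. The ASK1+hep mice also carried Cre driven by the albumin promoter, which removes the stop in hepatocytes, whereas ASK1f/f mice carried no Cre and served as controls. HFD began when the mice were 6 weeks old and lasted 7 weeks, and the mice were fasted for 5 h before the tissue was taken. The weights that the study describes for mice on this feeding are those of males, but the sex of each sequenced mouse is not given in the sources used here. The comparison asks whether hepatocyte ASK1, a stress-activated kinase, goes along with a different chemokine transcript repertoire in the whole liver on HFD.

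In the liver, Kupffer cells (the resident macrophages), sinusoidal endothelial cells, stellate cells and hepatocytes all can make chemokines. Homeostatic ligands such as Cxcl12 are made steadily and hold or position cells, whereas inflammatory ligands such as Cxcl1, Ccl2 and Cxcl10 are switched on by cytokines and microbial products through NF-kappaB, AP-1, STAT and interferon-response factors. Receptors are carried mainly by leukocytes, which are a small part of liver tissue, and the atypical receptors bind chemokines without G protein signalling and remove or transport them. In bulk tissue, fewer cells of a type and less RNA per cell cannot be told apart.

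Libraries held 13367742 to 16163378 reads on genes, and values are FPKM, a unit that divides a gene's reads by its length and by the size of the library. A member counted as measurable when 5 or more livers held 10 or more of its reads (after scaling to the median depth) and its total was 15 or more. The same filter left 13306 genes of the table for the comparison. The tissue label was checked against hepatocyte markers, of which 10 of 10 passed this filter, with a summed level of 32652 to 43599 FPKM in ASK1f/f and 37550 to 48028 FPKM in ASK1+hep livers. A single library stood against its label. Map3k5, the gene of ASK1, measured 6.74, 6.88, 5.77, 4.71 and 19.8 FPKM in ASK1f/f replicates 1 to 5 by label, and 16.4, 11.1, 7.68, 12.4 and 15.2 FPKM in ASK1+hep replicates 1 to 5. The highest of all 10 was thus a control by label, ASK1f/f replicate 5. Without that library every ASK1+hep liver was above every other ASK1f/f liver. Reads from the construct and from the native gene cannot be told apart, since both are murine ASK1. Fgf21, the hepatokine, ranged from 2.46 to 4.74 FPKM under the ASK1f/f label, replicate 5 included at 3.21, and from 7.40 to 30.1 FPKM under the ASK1+hep label. The genotype comparison, the gene lists and the relations are therefore also given without the library labelled ASK1f/f replicate 5.

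Of the 64 members, 20 were measurable, 33 had at least 1 read but stayed below the filter, and 11 had no read in any liver. The measurable set held 13 ligands (6 CC and 7 CXC), 3 conventional receptors (among them Cxcr4 and Ccr2) and all 4 atypical receptors. Of the 33 members below the filter, 15 were CC ligands, 3 were CXC ligands, 1 was Cx3cl1 and 14 were receptors. Their totals over the 10 livers ran from 1 to 88 reads, and 15 of them had 10 reads or fewer altogether. For the 11 members without a read, 3 reads over all 10 livers would have stood for 0.00571 to 0.0708 FPKM, depending on gene length, so expression below these levels was not detectable at this depth. These limits cover counting error only. The 64 genes carry 58 symbols. Copies of Ccl19, Ccl21 and Ccl27 account for the 7 members on unplaced scaffolds, and each of them shares a name with another member. Reads of these near-identical copies could be split or dropped in counting, so the absence of reads in Ccl21a on chromosome 4 and the 9 reads of its scaffold copy are uncertain.

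Among the members below the filter, the classical monocyte and neutrophil attractants were close to the limit. Ccl2, the main ligand of Ccr2, had 5, 3, 5, 5 and 13 reads in ASK1f/f and 9, 5, 5, 8 and 2 reads in ASK1+hep livers, and was the member below the filter with the highest mean level, 0.348 FPKM. Cxcl2, a ligand of the neutrophil receptor Cxcr2, had 5, 30, 5, 8 and 11 reads in ASK1f/f and 12, 7, 0, 7 and 3 reads in ASK1+hep livers. Cxcr2 itself had 32 reads in all livers together and Ccr1, the receptor of Ccl6 and Ccl9, had 30 reads. Both therefore lay below what these libraries could compare. Cxcr6 and Ccr7, receptors of resident and of recirculating lymphocytes, had 65 reads each, Cxcr3 had 41 reads and Cxcr5 had 41 reads. Cx3cl1 had 77 reads and its receptor Cx3cr1 had 78 reads, with 2 to 15 and 3 to 17 reads per liver. The members without a read included Ccl1, Ccl20, Ccl26, Cxcl3 and Cxcl15.

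Measurable members spanned a wide range of levels per gene length. Cxcl12 averaged 34.0 FPKM over the 10 livers, Cxcl1 22.5 FPKM and Ccl9 13.1 FPKM, and these 3 were the members at 10 FPKM or more. Together they made up 76.0% of the summed mean FPKM of all ligands (91.6 FPKM), and Cxcl12 alone made up 37.1%. The receptors and atypical receptors summed to 4.29 FPKM. Of the 20 measurable members, 9 averaged below 1 FPKM, and on the log2(FPKM + 1) scale used for the comparison the changes of such genes are understated.

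**Figure D1:**
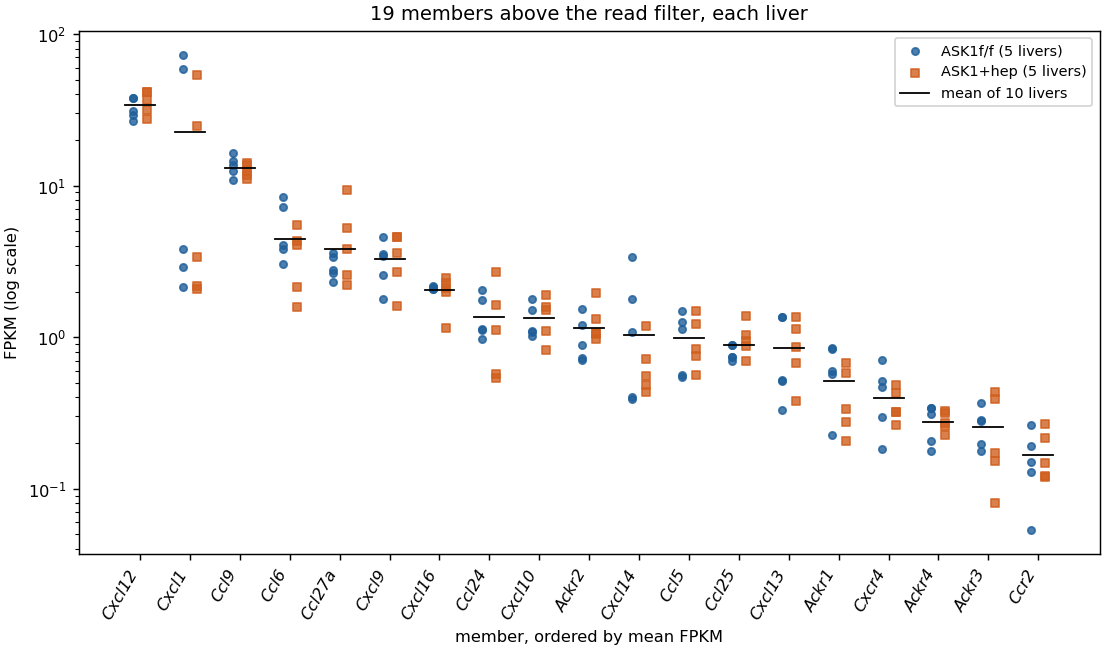
FPKM of 19 measurable members in each liver, on a log axis, with ASK1f/f livers as circles, ASK1+hep livers as squares and the mean of all 10 livers as a bar. Cxcl12 sits between 26.6 and 41.4 FPKM, Cxcl1 is scattered between 2.09 and 72.5 FPKM in both genotypes, and the receptors at the right all lie below 1 FPKM.

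Cxcl12 (ENSMUSG00000061353, chromosome 6, 117168535 to 117181367 on the plus strand of GRCm38) is the homeostatic ligand of Cxcr4. Its level was 37.5, 37.7, 29.0, 30.9 and 26.6 FPKM in ASK1f/f and 31.3, 36.8, 27.6, 41.3 and 41.4 FPKM in ASK1+hep livers. Group means were 32.3 ± 5.02 and 35.7 ± 6.11 FPKM (SD, n = 5 each), and 2 ASK1+hep livers were above all ASK1f/f livers. The difference of 0.13 on the log2 scale was smaller than its standard error of 0.14 and was not called (adjusted p = 0.844, limma). Even the lowest Cxcl12 liver was above the highest Ccl9 liver.

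Cxcl1 (ENSMUSG00000029380, chromosome 5, 90891241 to 90893115, plus strand) attracts neutrophils through Cxcr2 and was the member that varied most. Its level was 3.80, 72.5, 2.14, 2.91 and 58.4 FPKM in ASK1f/f replicates 1 to 5 and 2.16, 53.3, 2.09, 24.7 and 3.37 FPKM in ASK1+hep replicates 1 to 5. These values rest on 119, 2142, 60, 83 and 1685 reads and on 69, 1292, 54, 684 and 87 reads. Each genotype thus held 2 livers at 24.7 FPKM or more and 3 livers at 3.80 FPKM or less, and the gap between the 4th and 5th highest livers was 6.50-fold. The spread within genotypes, an SD of 2.09 on the log2 scale, ranked 7 among the 13306 genes compared, whose median was 0.195, and the median of the measurable members was 0.235. Group means were 28.0 ± 34.6 and 17.1 ± 22.4 FPKM (SD, n = 5 each). The genotype difference was -0.42 (standard error 1.10, 95% interval -2.82 to 1.98, adjusted p = 0.937, limma), and the exact two-sided permutation test gave p = 0.611. Without the library labelled ASK1f/f replicate 5 it was 0.15, and without ASK1f/f replicate 2 it was 0.23, so its direction rests on single livers.

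Genes with the same 4 highest livers as Cxcl1 were looked for after its values had been seen, as a description. There were 104 such genes, 0.782% of the genes compared, and no other measurable member was among them. Only 2 other genes compared had a gap between the 4th and 5th highest livers at least as large. Socs3, a feedback inhibitor of cytokine signalling, was one of the 104, with 1.39, 21.5, 1.04, 1.73 and 14.6 FPKM in ASK1f/f and 1.87, 8.86, 1.10, 6.21 and 2.59 FPKM in ASK1+hep livers. Stat3, the transcription factor downstream of interleukin-6 type cytokines, was at 11.9, 27.3, 11.9, 11.3 and 18.3 FPKM and at 10.4, 19.0, 10.1, 15.8 and 13.4 FPKM. Junb, an AP-1 subunit, and Bcl3, a nuclear partner of NF-kappaB, shared the 4 livers, with ranges of 6.28 to 65.1 FPKM and 7.13 to 30.9 FPKM. Of 4 acute-phase genes, Saa1, Saa2 and Hp also had the same 4 highest livers. Hp, haptoglobin, was at 6015 and 6137 FPKM in ASK1f/f replicates 2 and 5 and at 3694 and 3018 FPKM in ASK1+hep replicates 2 and 4, against at most 2527 FPKM elsewhere. Saa1, serum amyloid A, was at 1557 and 904 FPKM in these ASK1f/f livers but at 70.8 and 116 FPKM in the ASK1+hep livers, against at most 58.8 FPKM elsewhere. Lcn2 did not share the 4 livers and was at 124 and 45.3 FPKM in ASK1f/f replicates 2 and 5 but at 2.74 and 3.02 FPKM in ASK1+hep replicates 2 and 4. Tnf had 1 to 6 reads per liver and Il6 had 0 or 1 read, so these inducers could not be compared. Il1b, another inducer, passed the filter (7 to 55 reads per liver) and did not share the 4 highest livers. It was at 0.999 and 0.647 FPKM in ASK1f/f replicates 2 and 5. In ASK1+hep replicates 2 and 4 it was at 0.284 and 1.95 FPKM, against 0.283 to 1.65 FPKM elsewhere.

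**Figure D2:**
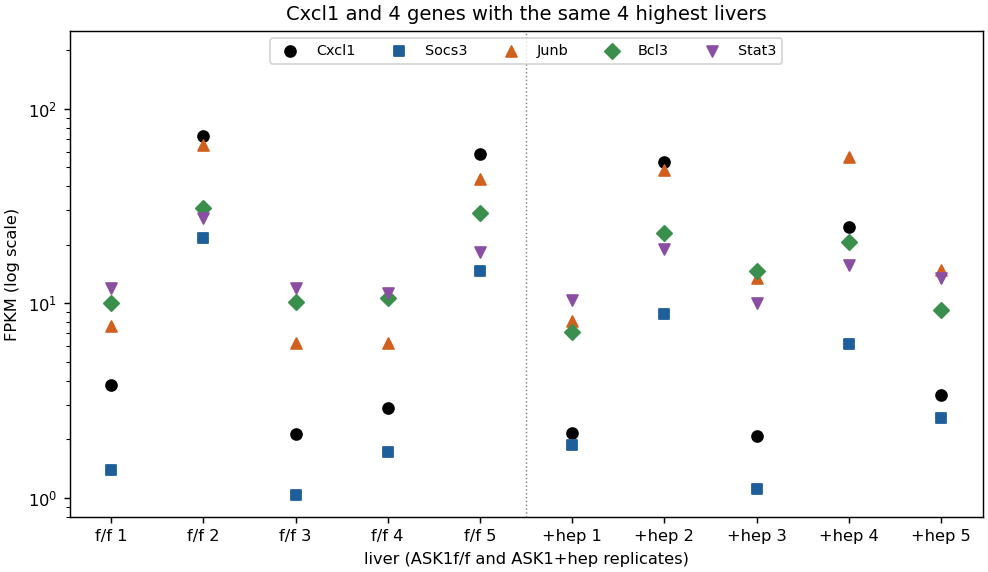
FPKM of Cxcl1, Socs3, Junb, Bcl3 and Stat3 in each liver, on a log axis, ASK1f/f replicates to the left of the dotted line and ASK1+hep replicates to the right. Cxcl1 is at 24.7 to 72.5 FPKM in ASK1f/f replicates 2 and 5 and ASK1+hep replicates 2 and 4 and at 2.09 to 3.80 FPKM in the other livers, and the other genes, chosen after their values were seen, are highest in the same livers.

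Summed levels of leukocyte markers were spread over livers with high and with low Cxcl1. The summed level of 13 neutrophil markers, of which 3 passed the filter, was 2.63, 6.52, 8.35, 3.15 and 19.5 FPKM in ASK1f/f and 5.98, 5.01, 9.70, 3.60 and 5.11 FPKM in ASK1+hep livers. The summed level of 12 Kupffer cell markers, all of which passed, was 192 to 323 FPKM in ASK1f/f and 122 to 286 FPKM in ASK1+hep livers, with the lowest value in ASK1+hep replicate 2 and the highest in ASK1f/f replicate 5, livers with 53.3 and 58.4 FPKM of Cxcl1. The neutrophil marker Ly6g was at 0 in 7 of 10 livers. Animal tags beginning with SN were carried by ASK1f/f replicate 1 and ASK1+hep replicate 1, where Cxcl1 was at 3.80 and 2.16 FPKM, and the other 8 livers carried tags beginning with CC. The part of these cells and tags in the Cxcl1 levels was not tested.

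Cxcl1 lies in a stretch of chromosome 5 (90759360 to 90905938) with Cxcl5, Cxcl3, Cxcl15 and Cxcl2, which all encode ligands of this neutrophil-attracting group or close relatives, and it was the only measurable gene of these 5. The 250 bases before the start sites of Cxcl1, Cxcl2 and Cxcl3 are shown because all 3 hold the same kappaB-like letters on the plus strand, drawn in capitals, while their transcript levels were 22.5 FPKM, 88 reads in all livers and no read. The sequences are RefSeq's on GRCm38.p6, 5′ to 3′ on the strand of the gene.
Cxcl1 promoter, chr5:90890995-90891244, plus strand: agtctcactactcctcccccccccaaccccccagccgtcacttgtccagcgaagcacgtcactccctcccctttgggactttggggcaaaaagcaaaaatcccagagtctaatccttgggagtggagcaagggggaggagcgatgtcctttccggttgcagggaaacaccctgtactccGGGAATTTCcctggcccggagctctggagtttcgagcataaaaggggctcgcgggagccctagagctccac
Cxcl2 promoter, chr5:90903649-90903898, plus strand: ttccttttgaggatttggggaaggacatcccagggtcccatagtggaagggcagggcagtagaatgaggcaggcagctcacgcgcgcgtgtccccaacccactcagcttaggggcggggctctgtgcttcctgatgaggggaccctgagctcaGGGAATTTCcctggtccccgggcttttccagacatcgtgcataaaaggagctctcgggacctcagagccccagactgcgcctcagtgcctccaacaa
Cxcl3 promoter, chr5:90785851-90786100, plus strand: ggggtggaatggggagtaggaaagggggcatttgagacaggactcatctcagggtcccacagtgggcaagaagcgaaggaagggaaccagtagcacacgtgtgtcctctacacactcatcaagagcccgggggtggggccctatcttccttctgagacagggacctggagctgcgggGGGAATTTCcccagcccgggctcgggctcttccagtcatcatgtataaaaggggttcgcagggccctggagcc
The match GGGAATTTC lies 71 to 63 bases before the start site of Cxcl1, 97 to 89 bases before that of Cxcl2 and 73 to 65 bases before that of Cxcl3. The motif searched was GGGANTTTC on both strands, and 0.977% of 27018 promoter windows of this length hold it. Of the 58 member symbols, 43 had a window, and 6 of these held the motif, the others being Ccr3, Cxcl9 and Cxcr2. The start site of Cxcl2 in RefSeq lies 28 bases inside the gene as the deposited table gives it. A match is a description of letters and not a binding site.

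The remaining CXC ligands were low and steadier. Cxcl9 and Cxcl10 are ligands of Cxcr3 that interferon gamma induces in macrophages and endothelium, and they lie side by side on chromosome 5 (92321347 to 92348889). Cxcl9 was at 1.79, 3.56, 3.44, 2.57 and 4.57 FPKM in ASK1f/f and 3.58, 1.62, 2.67, 4.56 and 4.60 FPKM in ASK1+hep livers. Cxcl10 was at 1.01, 1.10, 1.78, 1.08 and 1.50 FPKM in ASK1f/f and 1.59, 0.824, 1.51, 1.89 and 1.10 FPKM in ASK1+hep livers. Both were lowest in ASK1+hep replicate 2, and both genotypes covered nearly the same range, with differences of 0.06 (standard error 0.23) and 0.05 (standard error 0.14) on the log2 scale. Exons of Art3 on the other strand cover 5.91% of the exon bases of Cxcl10, and whether counting used strand is not stated, so its level is uncertain to that extent. Cxcl11, the other Cxcr3 ligand of this stretch, is annotated as a polymorphic pseudogene and falls outside the rule. Its mean level was 0.677 FPKM. Ifng had no read in any liver.

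The promoter windows of Cxcl9 and Cxcl10 are shown because both neighbours are interferon-inducible and could be measured. Letters like an interferon-stimulated response element (ISRE) are in capitals.
Cxcl9 promoter, chr5:92328080-92328329, minus strand: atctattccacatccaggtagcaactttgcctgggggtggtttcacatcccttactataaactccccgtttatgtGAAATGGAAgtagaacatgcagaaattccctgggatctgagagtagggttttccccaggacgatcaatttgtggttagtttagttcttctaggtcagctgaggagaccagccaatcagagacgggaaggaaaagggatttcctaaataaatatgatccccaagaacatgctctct
Cxcl10 promoter, chr5:92348890-92349139, minus strand: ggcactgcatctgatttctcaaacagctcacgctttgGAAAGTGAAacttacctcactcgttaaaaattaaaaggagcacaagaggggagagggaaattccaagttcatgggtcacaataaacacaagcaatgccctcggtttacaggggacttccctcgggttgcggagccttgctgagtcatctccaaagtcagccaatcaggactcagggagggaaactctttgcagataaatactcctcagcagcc
The motif GAAANNGAA was searched on both strands and is held by 7.16% of all windows and by 8 of the 43 member windows, 4 of them of measurable members. For an AP-1 motif, TGANTCA, the share was 6.87% of all windows and 4 of the 43, Cxcl10 included. For a STAT motif, TTCNNNGAA, it was 7.18% and 3 of the 43.

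Cxcl16, a membrane-anchored ligand of Cxcr6, was the steadiest ligand in the control group, with 2.12, 2.08, 2.08, 2.13 and 2.17 FPKM in ASK1f/f and 2.47, 1.15, 2.11, 1.99 and 2.26 FPKM in ASK1+hep livers. The only liver below 1.99 FPKM was ASK1+hep replicate 2. Exons of Zmynd15 on the other strand cover 18.3% of its exon bases. Cxcl14 was at 0.393, 1.77, 0.402, 1.08 and 3.38 FPKM in ASK1f/f and 1.19, 0.720, 0.556, 0.482 and 0.437 FPKM in ASK1+hep livers. Its difference of -0.40 (standard error 0.28, adjusted p = 0.813, limma) became -0.15 without the library labelled ASK1f/f replicate 5, which held the highest level. Cxcl13, the B cell attractant, was at 1.35, 0.331, 0.523, 0.514 and 1.36 FPKM in ASK1f/f and 0.867, 0.673, 0.379, 1.35 and 1.14 FPKM in ASK1+hep livers, on 6 to 26 reads per liver.

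Among the CC ligands, Ccl9 and Ccl6 led. Both are myeloid cell products that act through Ccr1, and they lie with Ccl5, Ccl3 and Ccl4 on chromosome 11 (83525778 to 83664683). Ccl9 was at 12.5, 13.7, 14.5, 16.3 and 10.8 FPKM in ASK1f/f and 12.4, 14.0, 11.0, 13.7 and 11.7 FPKM in ASK1+hep livers, a coefficient of variation of 12.9% over the 10 livers, the lowest of the 20 members. Its genotype difference was -0.10 (standard error 0.12, adjusted p = 0.857, limma). Ccl6 was at 3.04, 8.35, 3.84, 4.03 and 7.24 FPKM in ASK1f/f and 5.52, 2.15, 1.58, 4.07 and 4.33 FPKM in ASK1+hep livers. It had the lowest unadjusted p of all members (0.131) at a difference of -0.48 (standard error 0.30, 95% interval -1.12 to 0.17, adjusted p = 0.812, limma). The exact permutation test gave p = 0.214, and the values of the 2 genotypes overlapped. With the library labelled ASK1f/f replicate 5 left out, the difference was -0.36. The 6 genes of the other CC block of chromosome 11 (82035571 to 82305690), Ccl2, Ccl7, Ccl11, Ccl12, Ccl8 and Ccl1, all stayed below the filter.

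Ccl27a, a ligand of Ccr10 best known from skin, was at 3.38, 2.75, 2.64, 3.59 and 2.32 FPKM in ASK1f/f and 2.22, 5.27, 9.34, 3.82 and 2.57 FPKM in ASK1+hep livers. The liver with 9.34 FPKM, ASK1+hep replicate 3, also held 8 of the 12 reads of the neighbouring copy Ccl27b. The difference of 0.39 (standard error 0.27, adjusted p = 0.812, limma) was not called and was 0.14 without that liver. Copies on scaffolds, together with an exon overlap of 0.337% with Il11ra1, leave its level uncertain. Ccl24, an eosinophil attractant that acts through Ccr3, was at 0.971, 1.77, 1.14, 1.12 and 2.06 FPKM in ASK1f/f and 1.63, 0.538, 2.69, 0.575 and 1.12 FPKM in ASK1+hep livers, a broader range in the second group. Ccl5, made by T and NK cells, was at 0.562, 1.12, 1.25, 0.548 and 1.49 FPKM in ASK1f/f and 1.22, 0.564, 0.832, 1.48 and 0.756 FPKM in ASK1+hep livers. Ccl25, a ligand of Ccr9, was at 0.740, 0.887, 0.745, 0.891 and 0.698 FPKM in ASK1f/f and 0.945, 1.38, 0.868, 1.04 and 0.692 FPKM in ASK1+hep livers. Its difference of 0.14 (standard error 0.09, adjusted p = 0.812, limma) gave the lowest exact permutation p of the 20 members, 0.167, and was 0.071 without ASK1+hep replicate 2, the highest liver. Further, 2.74% of its exon bases lie under exons of Elavl1.

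The conventional receptors were low. Cxcr4, the receptor of Cxcl12 on most leukocytes, was at 0.298, 0.702, 0.518, 0.182 and 0.467 FPKM in ASK1f/f and 0.487, 0.428, 0.321, 0.262 and 0.321 FPKM in ASK1+hep livers. Ccr2, the receptor of inflammatory monocytes, was at 0.0532, 0.150, 0.129, 0.262 and 0.192 FPKM in ASK1f/f and 0.121, 0.149, 0.268, 0.120 and 0.215 FPKM in ASK1+hep livers, on 6 to 27 reads. The genotype differences of Cxcr4 and Ccr2 were -0.06 and 0.02 on the log2 scale, each within its standard error of 0.09 and 0.06.

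The atypical receptors were the only class with every gene measurable. Ackr2, a scavenger of inflammatory CC ligands, was at 0.709, 0.731, 1.20, 0.882 and 1.54 FPKM in ASK1f/f and 1.95, 1.31, 1.04, 0.975 and 1.07 FPKM in ASK1+hep livers, the highest of the 4. Its difference was 0.17 (standard error 0.14, adjusted p = 0.815, limma), and it was 0.26 without the library labelled ASK1f/f replicate 5 but 0.076 without ASK1+hep replicate 1, the highest liver. Ackr1, the Duffy receptor of venous endothelium and red cells, was at 0.597, 0.226, 0.571, 0.842 and 0.832 FPKM in ASK1f/f and 0.584, 0.275, 0.672, 0.337 and 0.207 FPKM in ASK1+hep livers, but exons of Cadm3 on the same strand cover 25.7% of its exon bases. Ackr3, which takes up Cxcl12, was at 0.197, 0.285, 0.280, 0.177 and 0.369 FPKM in ASK1f/f and 0.438, 0.393, 0.173, 0.0809 and 0.152 FPKM in ASK1+hep livers. Ackr4, which takes up Ccl19, Ccl21 and Ccl25, was at 0.178, 0.342, 0.311, 0.342 and 0.205 FPKM in ASK1f/f and 0.316, 0.259, 0.270, 0.227 and 0.324 FPKM in ASK1+hep livers, and exons of Acad11 on the other strand cover 8.90% of its exon bases. None of the 4 was called (adjusted p from 0.812 to 0.984, limma), and the difference of Ackr1 was -0.19 (standard error 0.12).

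Set side by side, ligands and receptors were unevenly measurable. Of the 31 known pairs given here, 2 had both partners above the filter, namely Cxcl12 with Cxcr4 and Cxcl12 with Ackr3. Of the atypical receptors only Ackr3 is in these pairs. Pairs of the other atypical receptors, such as Ccl25 with Ackr4, which both passed, were not counted. In 11 pairs only the ligand passed, in 3 only the receptor and in 15 neither. The 2 highest ligands without a measurable partner were Cxcl1, at 22.5 FPKM against 0.0693 FPKM of Cxcr2, and Ccl9, at 13.1 FPKM against 0.0725 FPKM of Ccr1. Among these pairs, the receptor without a measurable ligand was Ccr2, whose ligands Ccl2, Ccl7 and Ccl12 had 60, 9 and 3 reads in all livers. These are levels per gene length in whole liver, and a receptor that few cells carry would be low whatever its level in those cells.

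**Figure D3:**
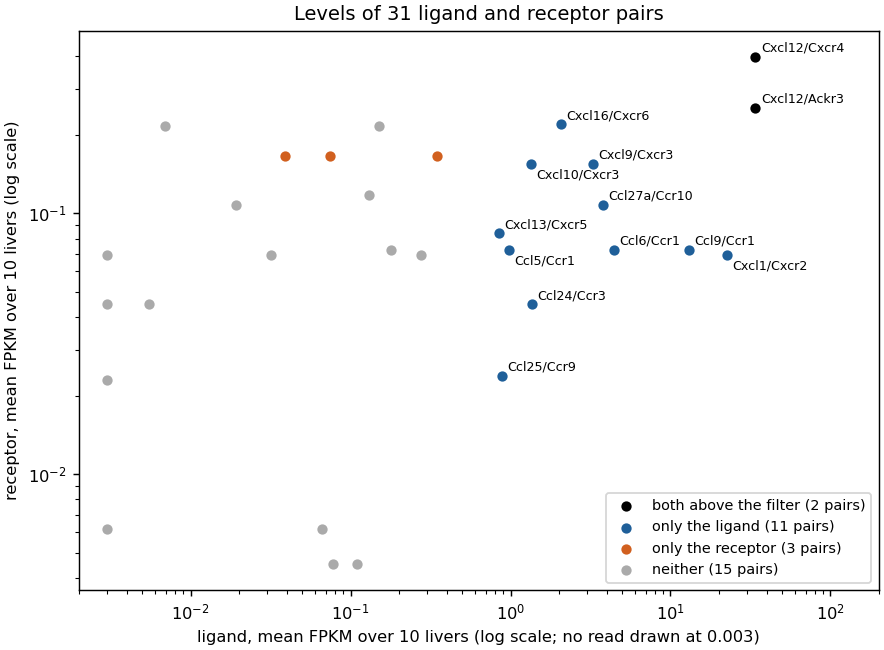
Mean FPKM over 10 livers of the ligand (horizontal) and the receptor (vertical) of 31 pairs, both on log axes, coloured by which partner passed the read filter, and ligands without a read are drawn at the left edge. Pairs with only a measurable ligand (11) lie to the right, at 0.849 to 22.5 FPKM of ligand, and the 2 pairs with both partners measurable lie at the top right.

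Between genotypes, 0 of the 20 measurable members were called at an adjusted p of 0.05 or less (limma on log2(FPKM + 1), Benjamini-Hochberg over 13306 genes). Among all genes 0% were called, and the lowest adjusted p was 0.812 among members and 0.355 among all genes. The value of 0.355 was that of Fgf21, at a difference of 2.06 (standard error 0.32) with groups that did not overlap. The study reports Fgf21 as highly upregulated in these livers, yet this fit did not call it. That 0 members were called is therefore weak evidence about them. At an unadjusted p under 0.05 there were 0 members, against 768 genes or 5.77% of all genes compared. This number of genes was 1724 without ASK1+hep replicate 5 and 1178 without ASK1+hep replicate 1. The groups did not overlap for 0 members, against 115 genes or 0.864% of all. Levels were higher in ASK1+hep for 9 members and lower for 11 (8 and 12 with scaling by all reads, where Ackr4 turned lower), with a median difference of -0.02 on the log2 scale, against -0.01 over all genes compared. Of all genes compared, 48.0% were higher in ASK1+hep. The 95% intervals of the difference reached 0.11 to either side for Ackr4 and 2.40 for Cxcl1, with a median of 0.30 on the log2(FPKM + 1) scale. For the 9 members below 1 FPKM the added 1 FPKM narrows the interval. By limma-voom on the recovered reads, Ackr1 was at -0.51 and Ackr3 at -0.25 (adjusted p = 0.815 and 0.895), against -0.19 and -0.023 on the log2(FPKM + 1) scale. A p that misses the threshold does not show that the genotypes are alike. With the library labelled ASK1f/f replicate 5 left out, 0 members were called and 0 had an unadjusted p under 0.05, and the median difference was 0.03. Over the 20 members, ASK1+hep replicate 2 was the lowest liver for 5 and ASK1f/f replicate 1 for 4, while ASK1f/f replicates 2 and 5 were each the highest for 4.

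**Figure D4:**
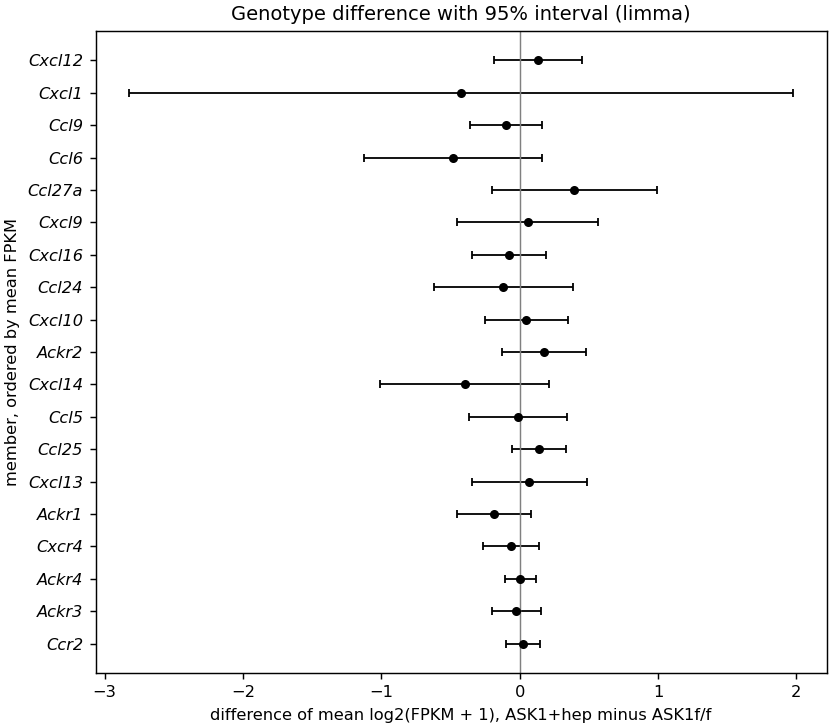
Difference of mean log2(FPKM + 1), ASK1+hep minus ASK1f/f, for 19 measurable members, with points for limma's estimate and bars for the 95% interval. Every interval includes 0, and that of Cxcl1 runs from -2.82 to 1.98.

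Genes that work around the chemokines were not called either. Of 34 genes of chemokine receptor signalling, such as G proteins, kinases and arrestins, 31 passed the filter, 6 were higher and 25 lower in ASK1+hep, and 0 had an unadjusted p under 0.05. Fpr1, a formyl peptide receptor of phagocytes, had the lowest p of this list, with a difference of -0.30 (standard error 0.16, adjusted p = 0.812, limma). Of 30 inducers, NF-kappaB genes and adhesion molecules, 24 passed, 5 were higher and 19 lower (3 and 21 with scaling by all reads), and Tlr4, the endotoxin receptor, had the lowest p, at -0.12 (standard error 0.05, adjusted p = 0.812). Of 16 genes, mostly of heparan sulfate and other surfaces that hold chemokines (and the peptidase Dpp4), 15 passed, 2 were higher and 13 lower. Gpc4, a glypican, was the only gene of them with an unadjusted p under 0.05, at -0.30 (standard error 0.13, adjusted p = 0.812). The median differences of the 3 lists were -0.06, -0.11 and -0.10, against -0.01 over all genes compared, of which 48.0% were higher in ASK1+hep. Genes of a list were measured in the same 10 livers, so their directions are not independent of each other. Without the library labelled ASK1f/f replicate 5, the genes lower in ASK1+hep numbered 20 of 31, 16 of 24 and 13 of 15. The medians were then -0.05, -0.04 and -0.12. Gnai1 was higher in ASK1+hep (0.31), and Gpc4 and Dpp4 were lower (-0.36 and -0.39), each with an unadjusted p under 0.05. Of 10 chemokine relatives outside the rule, 7 passed, 4 were higher and 3 lower, and Mif, a cytokine that also binds Cxcr2 and Cxcr4, had the lowest p, at 0.35 (standard error 0.28, adjusted p = 0.816).

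Marker lists of the cells that carry or make chemokines were compared in the same way, beside the 48.0% of all genes compared that were higher in ASK1+hep. All 12 Kupffer cell markers passed and all 12 were lower in ASK1+hep (12 also with scaling by all reads), with a median difference of -0.23, and none had an unadjusted p under 0.05. Adgre1 had the lowest p of them (difference -0.54, standard error 0.29, adjusted p = 0.812, limma). The library labelled ASK1f/f replicate 5 held the highest summed level, 323 FPKM. Without it 11 of the 12 were lower, Marco was at 0.12, Adgre1 at -0.41 and the median at -0.14. Of 10 monocyte markers 6 passed and all 6 were lower, led by Fn1 at -0.31 (standard error 0.17), which makes up 72.2% of the summed level and is also made by hepatocytes. Without the same library 4 of the 6 were lower, Ms4a6c was at 0.0036, and the median moved from -0.10 to -0.0042. Of 13 neutrophil markers 3 passed, of 20 T and NK cell markers 3, of 12 B and plasma cell markers 7, of 10 dendritic cell markers 5 and of 8 cholangiocyte markers 6, and none had an unadjusted p under 0.05. Lower in ASK1+hep were 2 of the 3 neutrophil markers and 0 of the 3 T and NK cell markers. The count was 2 of 7 for B and plasma cells, 4 of 5 for dendritic cells and 3 of 6 for cholangiocytes. Of the sinusoidal endothelial markers 12 of 12 passed with a summed level of 46.4 to 68.6 FPKM in ASK1f/f and 38.9 to 69.5 FPKM in ASK1+hep livers. Among these 12, 9 were lower in ASK1+hep (10 with scaling by all reads), with a median difference of -0.09. Of the stellate cell and fibroblast markers 12 of 12 passed and 10 were lower (12 with scaling by all reads), with a median difference of -0.16. Ngfr was lower at an unadjusted p under 0.05 (difference -0.29, standard error 0.12, adjusted p = 0.812). Of 8 lipid-associated macrophage markers 6 passed, 4 were higher and 2 lower, with a median difference of 0.12. Of 10 hepatocyte markers 4 were higher and 6 lower. The markers with an unadjusted p under 0.05 in other lists were Ttr of hepatocytes (0.52, standard error 0.24), Cd9 of lipid-associated macrophages (0.53, standard error 0.24) and Cidec of adipose tissue (1.69, standard error 0.70), all higher in ASK1+hep with an adjusted p of 0.812. Cidec is also a lipid droplet gene of fatty hepatocytes, and Adipoq, the defining adipocyte gene, had 0 or 1 read per liver. Without the library labelled ASK1f/f replicate 5, Cidec was at 2.26 and Cd9 at 0.71, Reln and Dcn of the stellate cell list were lower at -0.29 and -0.41, all 4 with an unadjusted p under 0.05, while Ttr (0.52) and Ngfr (-0.26) no longer had one. The lowest adjusted p of the lists was then 0.480.

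Ccl5 rose and fell with a sum of T and NK cell markers across the 10 livers. Of 8 relations between a member and a summed marker list, 5 could be computed, and 4 of them are given. Cxcr2, Cxcr6 and Cxcr5 lay below the filter. Ccl5 rose with the T and NK cell markers (r = 0.859, rho = 0.879, n = 10 livers, adjusted p = 0.00337 and 0.00625 over the 5 relations, two-sided permutation tests, unadjusted 0.00135 and 0.00176). Without the 2 farthest livers, ASK1+hep replicates 2 and 4, r was 0.794 (permutation p = 0.0172), with ASK1f/f replicate 5 left out it was 0.855 and within the 8 CC livers 0.910. The 2 livers with SN tags are too few for a value of their own. The relation joins levels from the same libraries. Of the 20 markers in the sum, 3 passed the filter. Ccl5 itself had 7 to 22 reads per liver, with 10 or more in 7 livers. Which cells made Ccl5 was not tested.

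**Figure D5:**
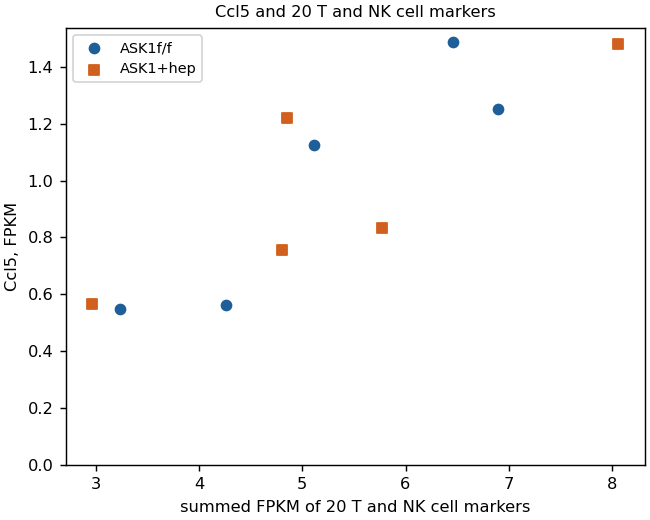
FPKM of Ccl5 against the summed FPKM of 20 T and NK cell markers, 1 point per liver, ASK1f/f as circles and ASK1+hep as squares. Ccl5 is at 0.564 FPKM in the liver with the lowest sum (2.96 FPKM) and at 1.48 FPKM in that with the highest (8.06 FPKM), and livers of both genotypes lie along the cloud.

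The other 3 relations given did not pass. Ccr2 and the monocyte markers gave r = -0.49 and rho = -0.491 (n = 10 livers, adjusted p = 0.187 and 0.260, unadjusted permutation p = 0.149 and 0.156), with Fn1 dominating the sum. Cxcl12 and the sinusoidal endothelial markers gave r = -0.526 and rho = -0.358 (adjusted p = 0.187 and 0.391, unadjusted permutation p = 0.126 and 0.313, n = 10 livers). Cxcl12 and the stellate cell markers gave r = 0.00622 and rho = 0.236 (adjusted p = 0.987 and 0.514 by permutation, n = 10 livers). Without the 2 livers farthest in these markers, ASK1+hep replicates 2 and 4, the last r was 0.706 (permutation p = 0.0309), so its size depends on those livers. For Ccr2 and for Cxcl12 with the endothelial markers, r without the 2 farthest livers was -0.262 and -0.310, and within the CC livers -0.426 and -0.474.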

How the data were processed

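Liver RNA from 10 mice was poly-A selected and sequenced by the authors' provider. Per the methods, reads were trimmed and cleaned, aligned with Hisat2, counted with FeatureCounts and turned into FPKM. The submitters' processing notes name fastp. Genome build, annotation and strand setting are not given in the sources used here. The deposited file holds these FPKM values with gene names, positions and lengths. Of its genes, 54495 were found in GENCODE M21 (GRCm38), 98.3% with identical coordinates, as were all 64 members.

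Each FPKM value, multiplied by gene length, was a whole number of a library's unit step (largest distance from whole 0.000187 reads), which gave the reads behind it. These reads served for the filter (5 or more livers with 10 or more reads after depth scaling, 15 or more in total), for depth and for limma-voom. The authors tested counts with DESeq2, which was not repeated here. The genotype comparison used limma 3.58.1 (R 4.3.3) with a mean-variance trend and no covariate on log2(FPKM + 1), with Benjamini-Hochberg adjustment over 13306 genes. Single members were also compared by an exact permutation test, two-sided, over the 252 ways to split the livers 5 and 5, whose smallest p is 0.00794. Relations used permutation tests with 100000 resamples (scipy 1.17.1). No library repeated another, as chi-square per degree of freedom was at least 19.1 for every pair. The scripts were tested on simulated data. Each animal is a separate biological unit. Promoter sequences are RefSeq's (GRCm38.p6). Figures were drawn with matplotlib 3.10.9.

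Members named with values in every liver were the 10 ligands with the highest mean FPKM, the receptors and the atypical receptors. Ccl5, Ccl25 and Cxcl13 were added. Another measurable member is counted throughout but its values are not reported here. From each other list the gene with the lowest p and those with an unadjusted p under 0.05 were named. Members, lists and tests were chosen with earlier results of these data known. Alternatives were to drop the filter, to ask for 10 reads in all livers, a pseudocount of 0.1, limma-voom (with or without quality weights), a replicate block, a covariate for the animal tag prefix, scaling by all reads, and leaving out each liver. Relations and gene lists without the library labelled ASK1f/f replicate 5 were added after seeing the data. Plasma, human, hepatocyte and virus experiments were not analysed here.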

Additional observations from a re-analysis of the deposited data

Results flagged for a closer look

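In 76 groups of 5 livers (the 20 measurable members, Map3k5, Fgf21 and the summed gene lists, by genotype), a liver is listed here if the gap between it and its nearest neighbour made up more than 0.71 of the group's range. Chance alone lists about 1 in 20 groups, and 3 are listed, none of them a member. Map3k5 reached 19.8 FPKM in ASK1f/f replicate 5, as labelled, against 6.88 FPKM in the next ASK1f/f liver (1853 reads, ratio 0.856). The summed level of the dendritic cell markers was 312 FPKM in the same library, against 211 FPKM in the next (ratio 0.857), and 98.0% of that sum is Bst2. The summed level of the inducers and adhesion molecules was 159 FPKM in ASK1+hep replicate 2, against 140 FPKM in the next ASK1+hep liver (ratio 0.735).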

How the results depend on the processing

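Over 18 alternative fits, 0 members were called in each, with a lowest adjusted p of 0.385. Of 19 members, 8 kept their direction throughout and 11 changed it in at least 1 fit, 5 of them in a fit other than leaving out a liver. With limma-voom Ccl5 was at 0.0318. With quality weights, 1 gene of the whole table was called, the median of the members was 0.10, and Cxcl1 was at 0.65, Ccl5 at 0.33, Cxcr4 at 0.0922, Ackr4 at -0.0166 and Ccr2 at -0.00433. With scaling by all reads Ackr4 was at -0.00937, the median over all genes was -0.05, and 31.4% of the 862 genes with an unadjusted p under 0.05 were higher in ASK1+hep, against 52.9% of 768. Leaving out each liver gave ranges of -1.07 to 0.23 for Cxcl1, -0.0792 to 0.23 for Cxcl9, -0.13 to 0.0395 for Cxcl16, -0.31 to 0.00784 for Ccl24, -0.027 to 0.14 for Cxcl10, -0.0989 to 0.0757 for Ccl5, -0.032 to 0.18 for Cxcl13, -0.13 to 0.00201 for Cxcr4, -0.0227 to 0.0243 for Ackr4, -0.0765 to 0.0264 for Ackr3 and -0.011 to 0.0544 for Ccr2. For the 8 members that kept their direction the ranges were 0.0694 to 0.22 for Cxcl12, -0.17 to -0.0335 for Ccl9, -0.63 to -0.30 for Ccl6, 0.14 to 0.56 for Ccl27a, -0.56 to -0.15 for Cxcl14, 0.0712 to 0.19 for Ccl25, 0.0762 to 0.26 for Ackr2 and -0.28 to -0.13 for Ackr1. Genes with an unadjusted p under 0.05 then numbered 557 to 1724, genes called in the whole table numbered 0 to 1 (1 without ASK1+hep replicate 5), and members at an unadjusted p under 0.05 numbered 0 to 1: Ackr1 without ASK1f/f replicate 2 and Ccl25 without ASK1+hep replicate 5. With no filter that number was 1, a scaffold copy of Ccl21a with 9 reads. With at least 10 reads in every liver 13 members remained in the fit. Without the 2 livers farthest from the median of the markers, r of Cxcl12 and the stellate markers was 0.706. It was -0.0448 within the CC livers and -0.22 without the library labelled ASK1f/f replicate 5. The cause was not tested. Depth limits members with few reads per liver, such as Ackr1 (4 to 18 reads) and Ackr3 (4 to 25 reads).

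The labels do not say that same-numbered livers of the 2 genotypes share a litter or day, although the numbers in the animal tags are 1 apart in 4 of the 5 pairs and the study calls the controls littermates. The correlations of their deviations from the group means were 0.0738, 0.174, 0.0212, 0.171 and 0.0932, not all above 0.1. Between livers of different numbers the mean correlation was -0.0275, and each same-numbered value lay above it. With the replicate number as a block, 0 members and 0 genes were called, and 880 genes had an unadjusted p under 0.05 against 768.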
